A study of Mus musculus with 23 samples.

Results

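The interferon-inducible GTPases described here are 6 mouse genes, the guanylate-binding proteins Gbp2, Gbp3 and Gbp7 and the immunity-related GTPases Igtp, Irgm1 and Iigp1. They were chosen by gene name with their measured signals over these arrays in view, so their own signals are given as a description with no test. Of 45101 probe sets on the array 9 name 1 of these genes alone and 0 name it beside another gene. All 6 genes were among the 13256 genes kept for testing. Gbp3 was above the median of its array on only 7 of 23 arrays, all late arrays of conditions in which it was high. Its place among the genes kept, and in the counts of members below, rests on those arrays. The cells were epiblast-like cells, which stand for the epiblast before gastrulation in culture and were induced with Activin A and bFGF from male C57BL/6 embryonic stem cell lines grown in 2i and LIF. One line lacks Wnt3 (Wnt3 -/-, KO) and the other has it intact (Wnt3 +/+, WT), and both carry the Blimp1-mVenus transgene. Cells were then cultured as floating aggregates in GMEM with KSR and LIF, which all conditions share. KO aggregates had BMP4 and WNT3A, WNT3A, BMP4 or no cytokine, and WT aggregates had BMP4, WNT3A or no cytokine, with BMP4 at 500 ng/ml and WNT3A at 50 ng/ml. Each condition has 1 array at 12, 24 and 36 h and each genotype 1 array at 0 h, 23 arrays in all and no replicate. The small number of arrays limits how precise any value is. Each genotype is 1 line, so genotype and line cannot be told apart.

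GTPases of these families are made in small amounts by most resting cells and in large amounts after interferon binds its receptor and STAT and IRF factors reach their promoters. Guanylate-binding proteins gather on the vacuoles and membranes of intracellular bacteria and parasites and help to break them. Among the immunity-related GTPases, Iigp1 is an effector that loads onto parasite vacuoles, while Irgm1 and Igtp sit on the membranes of the cell itself and hold effectors inactive there. Embryonic stem cells are known to answer interferon weakly.

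The labels of 6 KO arrays conflict, since the title and the array name in the description exchange WNT3A alone for BMP4 and WNT3A together. Id1, a direct BMP target, read 5480, 7591 and 9345 at 12, 24 and 36 h on the KO arrays titled WNT3A and 186, 256 and 1323 on those titled BMP4+WNT3A. On KO arrays with BMP4 Id1 read 5557, 8192 and 10156, and on WT arrays with WNT3A it read 189, 350 and 2077. Id1 thus goes against the titles of these arrays, and they are called "KO titled WNT3A" and "KO titled BMP4+WNT3A" throughout. Wnt3 itself read between 11.2 and 27.9 on all KO arrays and reached 146.0 in WT cells with BMP4 at 36 h. The epiblast marker Pou5f1 read between 5914 and 9542 on all arrays, while Fgf5 and Otx2 spanned 41.6 to 2020 and 20.4 to 917. Of 5 leukocyte markers Ptprc, Lyz2 and Itgam never exceeded the median of their array, while Cd68 did on 23 arrays and Cd14 on 21. Of 5 fibroblast markers Col1a1 never did, while Col1a2 and Thy1 did on 23 arrays, Col3a1 on 22 and Pdgfrb on 10. Array medians ranged over signals of 36.8 to 41.4.

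RefSeq promoter windows (GRCm38.p6), from 250 bases before to 50 bases after the start of transcription, are shown for 5 members. Iigp1 was left out, so whether it holds the elements below is not reported here. The windows are shown because all 5 genes share a short element near the start site. The interferon-stimulated response element core, searched as GAAANNGAAA on both strands, lies in the Gbp2 window, chr3:142620413-142620712 (plus strand), and in a window of each of the others. Those windows are chr3:142559794-142560093 (plus strand) for Gbp3, chr3:142530086-142530385 (plus strand) for Gbp7, chr11:58199306-58199605 (plus strand) for Igtp and chr11:48871371-48871670 (minus strand) for Irgm1. Capitals mark each match to this core or to the gamma-activated site, searched as TTCNNNGAA, and overlapping matches run together.
Gbp2: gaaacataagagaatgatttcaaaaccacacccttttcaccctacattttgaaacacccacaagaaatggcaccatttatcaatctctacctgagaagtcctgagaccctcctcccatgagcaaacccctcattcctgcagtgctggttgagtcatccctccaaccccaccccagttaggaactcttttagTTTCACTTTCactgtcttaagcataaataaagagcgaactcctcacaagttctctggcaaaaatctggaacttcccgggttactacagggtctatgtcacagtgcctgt
Gbp3: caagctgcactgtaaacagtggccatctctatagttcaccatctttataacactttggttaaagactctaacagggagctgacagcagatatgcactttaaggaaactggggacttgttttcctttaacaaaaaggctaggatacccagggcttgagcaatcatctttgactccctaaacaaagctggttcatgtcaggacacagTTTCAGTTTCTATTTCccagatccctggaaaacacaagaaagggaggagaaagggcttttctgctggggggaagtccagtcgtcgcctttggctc
Gbp7: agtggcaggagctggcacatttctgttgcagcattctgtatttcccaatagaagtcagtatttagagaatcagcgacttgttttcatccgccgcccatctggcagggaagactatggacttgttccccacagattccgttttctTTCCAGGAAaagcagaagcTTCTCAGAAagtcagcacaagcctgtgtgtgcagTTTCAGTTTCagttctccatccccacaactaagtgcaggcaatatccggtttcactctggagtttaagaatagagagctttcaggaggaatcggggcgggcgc
Igtp: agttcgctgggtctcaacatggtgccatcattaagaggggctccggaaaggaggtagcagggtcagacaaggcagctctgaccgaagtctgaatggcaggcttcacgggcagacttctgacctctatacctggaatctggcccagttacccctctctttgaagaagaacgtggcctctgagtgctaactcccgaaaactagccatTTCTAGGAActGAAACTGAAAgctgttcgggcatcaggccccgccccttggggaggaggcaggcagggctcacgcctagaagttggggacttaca
Irgm1: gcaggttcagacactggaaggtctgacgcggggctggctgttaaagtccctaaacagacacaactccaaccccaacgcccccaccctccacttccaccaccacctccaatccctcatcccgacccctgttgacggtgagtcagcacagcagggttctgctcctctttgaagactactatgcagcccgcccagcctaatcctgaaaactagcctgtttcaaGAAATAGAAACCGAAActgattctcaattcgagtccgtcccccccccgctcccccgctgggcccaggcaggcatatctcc
Counted from the start site, the core matches begin at base -59 in Gbp2, at -45 and -39 in Gbp3, at -53 in Gbp7, at -34 in Igtp and at -30 and -24 in Irgm1. The 2 matches in Gbp3 overlap, and so do the 2 in Irgm1. Gbp3 has another window, with no match. Of 32851 promoter windows of this length 3.44% hold the core. The gamma-activated site matched in Gbp7, at -106 and -87, and in Igtp, at -45, against 8.30% of all windows. CTTTGAT, a core bound by the TCF/LEF factors of WNT signalling, had 0 matches in these windows, against 3.73% of all windows. At so low a share, 0 matches in so few windows carry no information. Other spellings of this core were not searched. A match says only that the letters are there. In the RefSeq gene order Gbp7, Gbp3, Gbp2b and Gbp2 follow each other on chromosome 3 and Igtp lies beside Irgm2 on chromosome 11, which also holds Irgm1.

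Gbp2, Gbp3, Igtp and Irgm1 were high late in culture in the same 4 conditions, those with added WNT3A in either genotype and BMP4 in WT cells. In KO cells with BMP4 they stayed well below this late in culture. Gbp7 moved the same way over a narrow range, and Iigp1 did not. All values are signals of single arrays, given in the order 12, 24 and 36 h for the brightest probe set of a gene, and levels of different genes are not compared because their probes differ.

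Gbp2 read 68.6, 523 and 1978 in KO titled BMP4+WNT3A, 91.1, 512.0 and 2419 in KO titled WNT3A and 103, 99.0 and 126 in KO with BMP4. In WT cells it read 77.7, 154 and 1771 with BMP4 and 102, 724 and 1978 with WNT3A. Without cytokine Gbp2 read 39.4 at 0 h and then 50.2, 45.3 and 49.5 in KO, and 46.9 at 0 h and then 53.4, 63.6 and 187 in WT. The 4 high arrays at 36 h stand far above all arrays without cytokine and above every array of KO with BMP4. At 36 h the ratio to KO without cytokine was 48.8 for KO titled WNT3A and 39.9 for KO titled BMP4+WNT3A, and 2.55 for KO with BMP4. The ratio to WT without cytokine was 9.45 with BMP4 and 10.6 with WNT3A. The WT array without cytokine at 36 h was itself 3.51 times its 12 h array, while in KO without cytokine that ratio was 0.986. The probes of this set may also match related genes of the family. Its other probe set followed it over the 23 arrays (Pearson r = 0.996) and gave wider ratios over KO without cytokine at 36 h. They were 140 for KO titled WNT3A, 121 for KO titled BMP4+WNT3A and 5.10 for KO with BMP4.

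Gbp3, a close relative of Gbp2, was dim in most arrays. It exceeded the array median only at 24 and 36 h in both titled KO conditions and WT with WNT3A, and at 36 h in WT with BMP4. It read 19.3, 48.8 and 399 in KO titled BMP4+WNT3A, 23.6, 61.4 and 630.3 in KO titled WNT3A and 24.3, 12.3 and 22.9 in KO with BMP4. In WT cells Gbp3 read 16.3, 23.1 and 617 with BMP4 and 29.0, 55.3 and 478 with WNT3A. Most of its range lay between 24 and 36 h, since the 36 h array was the only one of WT with BMP4 above 30. Without cytokine Gbp3 read 9.51 at 0 h and then 16, 6.63 and 9.25 in KO, and 17.1 at 0 h and then 12.2, 10.9 and 24.4 in WT. The 36 h array of KO with BMP4 thus lay below that of WT without cytokine. Signals this dim were not told apart from absence, so ratios to them carry little precision. At 36 h the ratio to WT without cytokine was 25.3 with BMP4 and 19.6 with WNT3A.

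Gbp7, linked in mice to defence by oxidants and autophagy, had the narrowest range among the 5 genes that were higher late. It read 61.8, 85.6 and 189 in KO titled BMP4+WNT3A, 76.6, 85.0 and 154 in KO titled WNT3A and 76.1, 70.03 and 86.2 in KO with BMP4. With BMP4 the WT arrays of Gbp7 read 67.6, 72.5 and 152, and with WNT3A they read 68.6, 60.5 and 197. Without cytokine it read 60.97 at 0 h and then 47.8, 57.3 and 64 in KO, and 77.7 at 0 h and then 58.5, 52.0 and 67.2 in WT. Only the 36 h arrays of the 4 high conditions exceeded 100. Their ratios to the matching array without cytokine lay between 2.27 and 2.95, and that of KO with BMP4 was 1.35. The other probe set of Gbp7 read between 1.0 and 10.3, never above the array median, and did not follow it (r = -0.14).

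Igtp, also called Irgm3, had a clear signal on every array. It read 265.0, 541 and 1479 in KO titled BMP4+WNT3A, 335, 630.3 and 1489 in KO titled WNT3A and 263, 340.1 and 437 in KO with BMP4. In WT cells Igtp read 191, 350 and 1722 with BMP4 and 352, 662 and 1499 with WNT3A. Without cytokine it read 191 at 0 h and then 377, 370 and 223 in KO, and 209 at 0 h and then 311, 246 and 338 in WT. The 4 high conditions reached nearly the same signal at 36 h, between 1479 and 1722. At 12 h they overlapped the arrays without cytokine. The ratio to the matching array without cytokine at 36 h was 6.63 for KO titled BMP4+WNT3A, 6.68 for KO titled WNT3A, 1.96 for KO with BMP4, 5.10 for WT with BMP4 and 4.44 for WT with WNT3A.

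Irgm1, which guards cell membranes and mitochondria and takes part in autophagy, differed most among the high conditions. It read 106, 247 and 556 in KO titled BMP4+WNT3A, 150.1, 399 and 1314 in KO titled WNT3A and 82.7, 72.5 and 47.5 in KO with BMP4. In WT cells Irgm1 read 108, 180 and 849 with BMP4 and 116, 407 and 396 with WNT3A. The WT arrays with WNT3A were nearly level between 24 and 36 h, while KO titled WNT3A was highest at 36 h. Without cytokine Irgm1 read 37.5 at 0 h and then 55.7, 49.2 and 27.9 in KO, and 32.7 at 0 h and then 60.5, 70.03 and 195 in WT. At 36 h the ratio to KO without cytokine was 20.0 for KO titled BMP4+WNT3A, 47.2 for KO titled WNT3A and 1.71 for KO with BMP4. Irgm1 was the member with the smallest ratio of KO over WT without cytokine at 36 h on the brightest probe sets, 0.143.

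Iigp1, the effector, read between 67.2 and 109 on all arrays. It read 102, 74.0 and 73.5 in KO titled BMP4+WNT3A, 99.0, 86.8 and 75.6 in KO titled WNT3A and 102, 91.8 and 75.1 in KO with BMP4. The WT arrays of Iigp1 read 79.3, 105 and 74.5 with BMP4 and 87.4, 85.0 and 71.5 with WNT3A. Without cytokine it read 109 at 0 h and then 108, 76.1 and 67.2 in KO, and 105 at 0 h and then 93.1, 78.8 and 96.3 in WT. All conditions overlapped. Its other probe set read between 3.76 and 20.5, never above the array median, and followed the first only loosely (r = 0.19). Whether the brighter set measures Iigp1 transcript or background could not be told apart on these arrays.

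**Figure D1:**
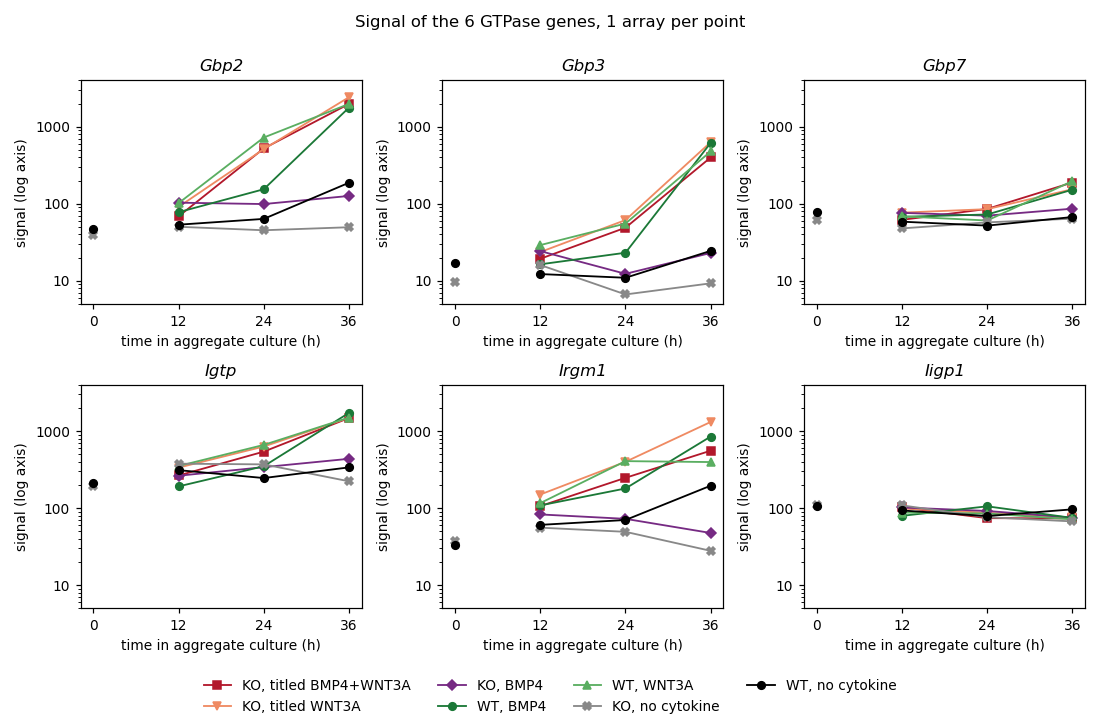
Signal (log axis, the same range in all panels) against hours of aggregate culture for the brightest probe set of each gene, 1 array per point and a line per condition, with the 0 h arrays as points of their own genotype. At 36 h Gbp2, Gbp3, Igtp and Irgm1 are high in both titled KO conditions and in WT with BMP4 or WNT3A. KO with BMP4 lies well below them, and Iigp1 is flat.

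At 36 h the time courses of the 5 genes other than Iigp1 show 4 conditions at the top and KO with BMP4 well below them. For Gbp2, KO with BMP4 read 103, 99.0 and 126 at 12, 24 and 36 h, above 50.2, 45.3 and 49.5 in KO without cytokine. At 12 h none of the 4 conditions read higher for Gbp2 than KO with BMP4. For Irgm1 all 4 already did at 12 h, with 106 in KO titled BMP4+WNT3A, 150.1 in KO titled WNT3A, 108 in WT with BMP4 and 116 in WT with WNT3A. Irgm1 then read 82.7 in KO with BMP4, and 55.7 in KO and 60.5 in WT without cytokine. Over the 23 arrays the log2 signals of Gbp2 correlated with those of Gbp3 (r = 0.95), Igtp (0.95), Irgm1 (0.93) and Gbp7 (0.86), and with Iigp1 at -0.57. The lowest correlation among the 5 was that of Gbp7 with Irgm1 (0.73). These are descriptions, since the arrays share cultures and times. In bulk RNA, fewer cells making a transcript and less of it per cell cannot be told apart.

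Next the arrays were set against each other as differences of log2(signal + 16) after quantile normalization, a scale that understates changes of dim genes. All comparisons of KO cells share the KO arrays without cytokine, both WT comparisons share the WT arrays without cytokine, and the comparisons between genotypes reuse the same arrays. At 36 h the median difference of the 6 genes was 3.03 for KO titled BMP4+WNT3A, 3.59 for KO titled WNT3A, 0.56 for BMP4 in KO, 2.13 for BMP4 in WT and 1.67 for WNT3A in WT. The medians of all genes tested in these comparisons lay between -0.04 and 0.02. At least 1 log2 unit higher were 5 of 6 members in KO titled BMP4+WNT3A, beside 4.48% of all genes tested, and 5 in KO titled WNT3A, beside 3.08%. For BMP4 in KO the count was 0 of 6, beside 0.868%. In WT cells it was 4 for BMP4, beside 2.78%, and 4 for WNT3A, beside 3.01%. Gbp3, counted in both titled KO conditions and both WT comparisons, was kept by the filter only through late arrays of those conditions. Gbp7 with BMP4 in WT (0.98) and Irgm1 with WNT3A in WT (0.89) were just under 1 log2 unit, as was Gbp2 with BMP4 in KO (0.998), and Gbp7 in KO titled WNT3A (1.01) was just over it.

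At 24 h the same medians were smaller, 1.04 for KO titled BMP4+WNT3A, 1.31 for KO titled WNT3A, 0.26 for BMP4 in KO, 0.53 for BMP4 in WT and 1.41 for WNT3A in WT. With BMP4 the WT median at 24 h was thus below that with WNT3A, and at 36 h above it. Sp5 and Axin2, targets of canonical WNT signalling, were already high at 12 h in WT cells with BMP4, at 1024 and 380.0, and with WNT3A, at 1098 and 523. In KO with BMP4 Sp5 read between 15.9 and 31.1 at all 3 times and Axin2 between 31.3 and 43.1. Over the same times Sp5 read 1046, 2150 and 5833 in KO titled BMP4+WNT3A and 815, 488 and 1269 in KO titled WNT3A. In WT cells without cytokine Sp5 read 27.5, 181 and 3541 at 12, 24 and 36 h, and in WT cells with BMP4 it read 2385 at 36 h. At 36 h Gbp2, Gbp3, Gbp7, Igtp and Irgm1 were all lower in WT cells without cytokine than with BMP4. Gbp2 and Irgm1 read 187 and 195 in WT cells without cytokine at 36 h, their highest signals without cytokine. The part of WNT signalling in the GTPase signals was not tested.

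**Figure D2:**
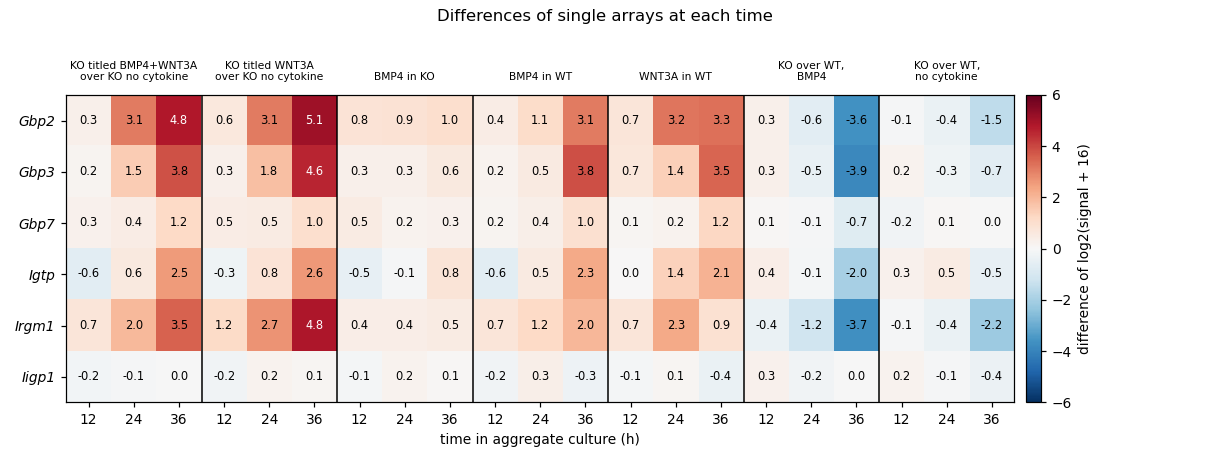
Difference of log2(signal + 16) between single arrays for each gene (rows), comparison (blocks of 3 columns) and time (12, 24 and 36 h within a block), with the value in each cell and red for higher, blue for lower. The differences of Gbp2 at 36 h are 4.81 and 5.10 in the titled KO conditions, 1.00 for BMP4 in KO, 3.10 for BMP4 in WT and 3.29 for WNT3A in WT, and the row of Iigp1 stays near 0.

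Averaged over the 3 times, the members differed by a median of 1.33 in KO titled BMP4+WNT3A, 1.64 in KO titled WNT3A, 0.37 for BMP4 in KO, 1.02 for BMP4 in WT and 1.24 for WNT3A in WT. Without the 36 h arrays these medians were 0.59, 0.77, 0.33, 0.32 and 0.89 in the same order. The differences of a gene varied widely between times. For Gbp2 in KO titled WNT3A the differences averaged 2.94 ± 2.25 over the times (SD, n = 3).

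The genotypes were compared at equal treatment. With BMP4, KO cells were lower than WT cells at 36 h by at least 1 log2 unit in 4 of 6 members, Gbp2 (-3.64), Gbp3 (-3.89), Igtp (-1.98) and Irgm1 (-3.67), beside 3.58% of all genes tested. Without cytokine it was 2 of 6, Gbp2 (-1.54) and Irgm1 (-2.19), beside 1.76%. The median over the 6 genes at 36 h was -2.81 with BMP4 and -0.57 without cytokine. At 24 h these medians were -0.34 and -0.15. Averaged over times they were -0.95 and -0.15, or -0.04 and -0.05 without the 36 h arrays. The WT array without cytokine at 36 h had a Gapdh 3' to 5' probe set ratio of 2.30, a measure of RNA integrity and amplification, against 1.21 in KO without cytokine. That array is also the one against which WT with BMP4 (1.10) and WT with WNT3A (1.53) were set at 36 h, and its part in these differences was not tested. Of the other conditions, WT with WNT3A at 24 h had a ratio of 4.03 and KO without cytokine at 24 h one of 2.68.

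Across the 7 conditions, 36 h was set against 12 h. The change in log2(signal + 16) averaged 2.62 ± 2.06 for Gbp2, 2.12 ± 1.98 for Gbp3, 1.21 ± 1.39 for Igtp, 1.27 ± 1.47 for Irgm1 and 0.66 ± 0.50 for Gbp7 (SD over 7 conditions). These averages join the high conditions with others in which the changes were smaller or went the other way. In KO without cytokine the 36 h over 12 h ratios were 0.50 for Irgm1, 0.578 for Gbp3, at dim signals, and 0.590 for Igtp. In KO with BMP4 that of Irgm1 was 0.574. Iigp1 averaged -0.36 ± 0.20.

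Other genes of the interferon pathway were taken from 5 lists of 88 genes that hold no member. Of these 57 were tested, 17 were too dim and 14 were left without a probe set of their own, Isg15 among them, and are not analysed here. The lists were drawn up with earlier results of these arrays known. Some tested genes, Usp18 for example, exceeded the array median only on the 36 h arrays where they were high. The filter kept them through those arrays alone, and the counts below include such genes and leave out the dim ones. At 36 h 25 of 57 (43.9%) were at least 1 log2 unit higher in KO titled BMP4+WNT3A and 24 (42.1%) in KO titled WNT3A, 8 (14.0%) for BMP4 in KO, 19 (33.3%) for BMP4 in WT and 17 (29.8%) for WNT3A in WT. The shares of all genes were 4.48%, 3.08%, 0.868%, 2.78% and 3.01% in this order. At most 1 was lower by as much in any of these. List medians at 36 h were 0.75, 0.65, 0.15, 0.42 and 0.41 in the same order. KO cells were lower than WT cells by 1 log2 unit in 20 of 57 (35.1%) with BMP4 and 8 (14.0%) without cytokine.

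By role, the ligands and receptors had medians between 0.01 and 0.33 at 36 h in the 5 cytokine comparisons, the signalling genes between 0.02 and 0.26, the other induced genes between 0.08 and 1.25 and the antigen presentation genes between 0.52 and 1.17. Among the interferon genes, Ifnb1 read between 40.8 and 61.4 on all arrays and Ifng between 1.52 and 10.3 (both named after their values were seen). Irf1, the factor that binds GTPase promoters after interferon gamma, read 2876 in KO titled BMP4+WNT3A, 3743 in KO titled WNT3A, 1184 in KO with BMP4, 5221 in WT with BMP4 and 2592 in WT with WNT3A at 36 h, against 648 in KO and 1629 in WT without cytokine. Irf9, the DNA-binding part of the type I interferon complex, spanned only 72.0 to 214 over the 23 arrays. Usp18, a brake on the type I receptor, read 367, 393, 6.36, 355 and 362 in those 5 conditions at 36 h, against 6.32 in KO and 11.5 in WT without cytokine. These 4 high arrays are also those of Gbp2. Usp18 was kept by the filter through these 4 arrays alone, so the match is a description and no support.

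**Figure D3:**
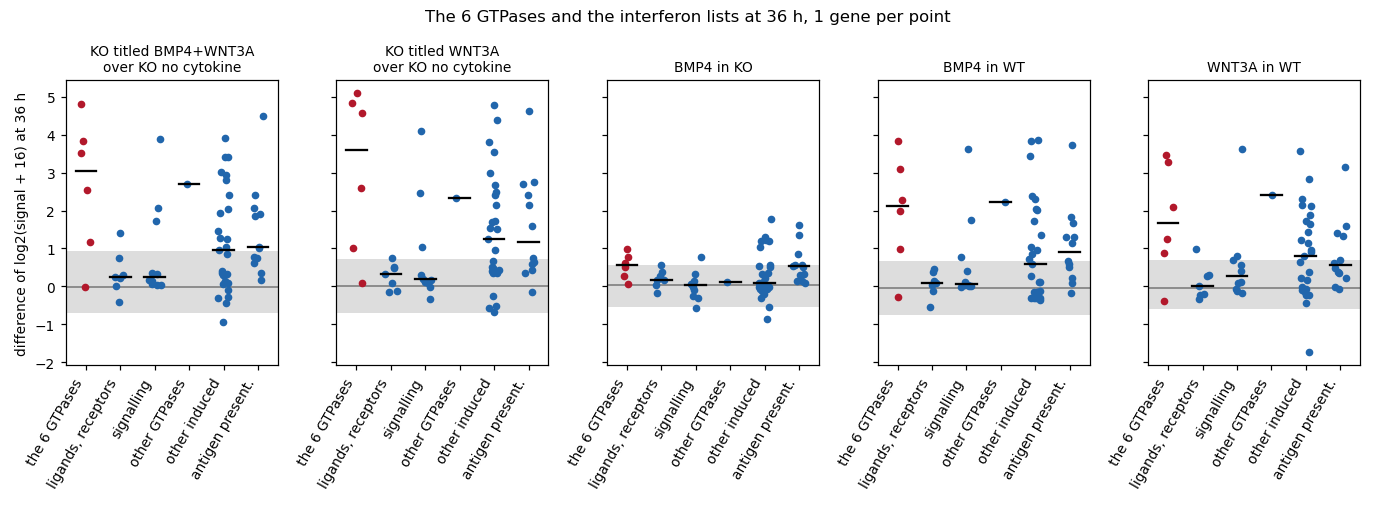
Difference of log2(signal + 16) at 36 h for each gene (points), with the median of each list (black bars), for the 6 GTPases (red) and the 5 interferon lists (blue), and the 5th to 95th percentile of all genes tested in grey. In the titled KO conditions 5 of 6 GTPases lie above 1, while for BMP4 in KO 0 do, beside 8 of 57 list genes.

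A model over all genes (limma, 21 arrays, condition plus time, Benjamini-Hochberg adjusted p under 0.05) called up to 8 list genes in a cytokine comparison. It averages over the 3 times and takes them as replicates, so a difference that grows with time counts as spread. In KO titled BMP4+WNT3A 5 of 57 rose and 1 fell. Tapbp, which loads peptides onto class I molecules, rose by 1.62 (SE 0.23, adjusted p = 0.000636) and Tap1, the peptide transporter, by 1.05 (SE 0.24, adjusted p = 0.0131). Ifitm3 (1.197) and Ifitm1 (1.90), membrane proteins that block virus entry, and Il10rb (0.78), a receptor chain shared with interferon lambda, rose too, and Ifit2 fell by 0.74. In KO titled WNT3A 6 rose, Tapbp (1.81, adjusted p = 0.000159), Tap1 (1.71), Ifitm3 (1.61), the chemokine Cxcl10 (1.63), the immunoproteasome subunit Psmb8 (2.48) and the peptide trimmer Erap1 (1.37), and Oas3 (-0.77) and Samhd1 (-0.35) fell. In WT cells Tap1 (1.05, SE 0.24, adjusted p = 0.0202) and Tapbp (0.88, adjusted p = 0.0449) rose with BMP4, and Tapbp rose with WNT3A (1.09, adjusted p = 0.0471). For BMP4 in KO limma called 0 list genes, with 6 at an unadjusted p under 0.05, and the smallest adjusted p was 0.0901, for Ifitm3 (1.18). The shares called were 10.5%, 14.0%, 3.51%, 1.75% and 0% in this order, against 6.77%, 9.51%, 3.42%, 0.483% and 0.558% of all genes. With 1 time left out the counts of list genes called lay between 0 and 6 in KO titled BMP4+WNT3A, 0 and 10 in KO titled WNT3A, 0 and 2 in both WT comparisons and 0 and 1 for BMP4 in KO. They were 0 in all 5 without the 24 h arrays.

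Between genotypes with BMP4 4 list genes were lower in KO, Tap1 (-1.10, SE 0.24, adjusted p = 0.00942), Jak2, a kinase of the interferon gamma receptor (-1.24, adjusted p = 0.0102), Tapbp (-0.87) and Ifi27l2a (-0.69), and 0 without cytokine, where 6 had an unadjusted p under 0.05. Of all genes limma called 7.23% with BMP4 and 0.0981% without cytokine. The first count was 0 without the 24 h arrays, 2 without those of 36 h and 3 without those of 12 h. The difference between the genotypes in the BMP4 response passed the limma threshold for 0 of 13256 genes, where the smallest adjusted p was 0.0516 and 781 had an unadjusted p under 0.05. Among list genes Jak2 had the smallest unadjusted p there (-1.29, adjusted p = 0.529). With time 26 of 57 rose and 3 fell, which is 50.9% against 38.7% of all genes. B2m, the light chain of class I molecules, rose by 1.33 (SE 0.09, adjusted p = 3.49e-08), Irf9 by 0.52 (adjusted p = 0.000406) and Irf1 by 0.85 (adjusted p = 0.0169), and Irf3 fell by 0.43. The time term averages over all conditions, so a rise need not hold in each. In KO without cytokine Irf1 read 1176 at 12 h and 648 at 36 h.

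Irgm2, the neighbour of Igtp and like it a regulatory GTPase, was the only tested gene of the 16 other interferon-inducible GTPases listed (named after its values were seen). At 36 h Irgm2 read 639 in KO titled BMP4+WNT3A, 458 in KO titled WNT3A, 84.4 in KO with BMP4, 468 in WT with BMP4 and 549 in WT with WNT3A, against 71.0 in KO and 81.6 in WT without cytokine. Its high arrays were those of Igtp. Gbp2b, which lies between Gbp3 and Gbp2, was too dim to be tested. On the other side of Gbp2, Kyat3 read between 123 and 220 at 36 h. Gtf2b, next to Kyat3, read 1965 in KO titled BMP4+WNT3A, 1541 in KO titled WNT3A, 2288 in WT with BMP4 and 1951 in WT with WNT3A. It read 1314 in KO with BMP4, and 1370 in KO and 1499 in WT without cytokine. Gtf2b was thus also highest in the conditions in which Gbp2 was high, over a narrow range.

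**Figure D4:**
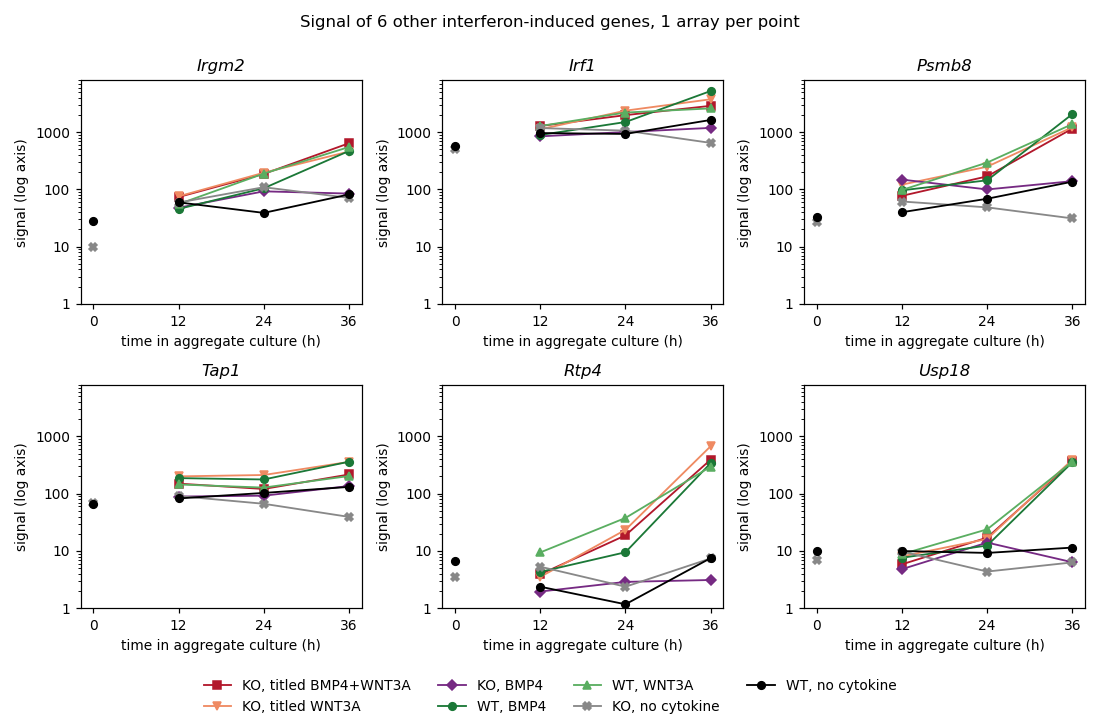
Signal (log axis, the same range in all panels) against hours of aggregate culture for 6 genes outside the members, 1 array per point and a line per condition, with 0 h as single points. Irgm2, Psmb8, Rtp4 and Usp18 are high at 36 h on the arrays of both titled KO conditions and of WT with BMP4 or WNT3A, and Rtp4 and Usp18 stay below 15 in KO with BMP4. The 6 genes were picked from the interferon lists and do not stand for all of them. Psmb8, Rtp4, Usp18 and Irf1 are also among the genes most correlated with the members. Other tested list genes did not follow, such as Ifit3 (29.4 to 62.7 over all arrays) and Rsad2 (98.4 to 168), both named after their values were seen.

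Over the 23 arrays the genes whose log2 signals were most like the mean of the members, by Pearson correlation, were Parp9 (0.97), Nmi (0.96), Psmb8 (0.95), Cryab (0.95), Zc3hav1 (0.94), Rtp4 (0.94), Peg3 (0.94) and Psmb10 (0.94). Parp9, Nmi, Psmb8, Rtp4 and Psmb10 stand in the interferon lists, and Zc3hav1 encodes an antiviral zinc finger protein. Cryab, a small heat shock protein, and Peg3, an imprinted zinc finger gene, are not in them. For each member alone the nearest gene was Fah for Gbp2 (0.97), Rtp4 for Gbp3 (0.98), Usp18 for Gbp7 (0.92), Parp9 for Igtp (0.96), Irf1 for Irgm1 (0.95) and Adgrg1 for Iigp1 (0.89). Rtp4 read 393 in KO titled BMP4+WNT3A, 676 in KO titled WNT3A, 3.12 in KO with BMP4, 343 in WT with BMP4 and 296 in WT with WNT3A at 36 h, against 7.41 in KO and 7.52 in WT without cytokine.

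Markers of cell identity differed between these conditions too. The summed signal of 5 epiblast markers spanned 12309 to 22565 in KO titled BMP4+WNT3A, 16261 to 20612 in KO titled WNT3A, 23800 to 25898 in KO with BMP4, 12488 to 20514 in WT with BMP4 and 10580 to 21901 in WT with WNT3A, against 24923 to 27203 in KO and 20534 to 27557 in WT without cytokine. The sum of 5 naive embryonic stem cell markers spanned 1070.3 to 1273 in KO titled BMP4+WNT3A, 743 to 1011 in KO titled WNT3A, 549 to 834 in KO with BMP4, 392 to 626 in WT with BMP4 and 879 to 1145 in WT with WNT3A, against 346 to 703 in KO and 464 to 771 in WT without cytokine. At 0 h the naive sum was 1099 in KO and 981 in WT, so the starting cells already had sums in the range reached with added WNT3A. The epiblast sum lay below the KO range without cytokine, on all arrays of both titled KO conditions. The sum of 5 leukocyte markers spanned 212 to 232 in KO titled BMP4+WNT3A, 209 to 230.2 in KO titled WNT3A, 170.4 to 337 in KO with BMP4, 204 to 331 in WT with BMP4 and 188 to 251.3 in WT with WNT3A, against 179 to 224 in KO and 223 to 243 in WT without cytokine, with Ptprc between 4.53 and 15.0 on all arrays. The sum of 5 fibroblast markers spanned 406 to 802 in KO titled BMP4+WNT3A, 379 to 571 in KO titled WNT3A, 489 to 573 in KO with BMP4, 546 to 995 in WT with BMP4 and 545 to 948 in WT with WNT3A, against 440.0 to 592 in KO and 540.0 to 598 in WT without cytokine. Its highest sums thus lay in 3 of the 4 conditions in which the GTPases were high, and not in KO titled WNT3A. At 0 h the fibroblast sum was 625 in KO and 630.1 in WT, above the ranges without cytokine. Among its genes Pdgfrb spanned 4.82 to 584 over all arrays and Thy1 41.9 to 437. The part of cell identity in the GTPase signals was not tested.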

How the data were processed

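The authors deposited 1 intensity value per probe set and array on a linear scale for 23 Affymetrix mouse genome arrays, hybridised, per the labels' protocols, with biotin-labelled RNA from amplified cDNA. The sources used here do not name the method of summarising and scaling them. On the log2 scale they fall on steps of 0.01, and 2.93% are at the minimum of 1. Since upper quartiles of arrays differed by 0.37 log2 (limit 0.2), log2(value + 16) was quantile normalized.

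Probe sets that the platform annotation gives several genes (932) or none (9211) were left out, and 34958 with 1 gene remained. Names follow the platform annotation, updated by gene identifier for 34754. Each of 18194 genes was represented by its brightest probe set and kept where it exceeded the array median on at least 3 arrays. Groups follow sample titles. limma 3.58.1 under R 4.3.3 was fitted to 21 arrays with condition and time as terms (12 residual degrees of freedom), empirical Bayes moderation and Benjamini-Hochberg adjustment over all genes. The 3 times stand in for replicates within 1 series of cultures. Each p thus rests on the spread left after the condition and time terms, pooled over all conditions. The steps were tested on simulated data. Differences at 36 h compare single arrays and have no test.

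Members and lists were chosen with earlier results of these data known. Named genes are the members, list genes called with the 6 smallest adjusted p per comparison, Irf1 and Irf9, the most correlated genes, and Wnt3 and Id1, besides those named after their values were seen. Psmb8 and Erap1 are named as called and as correlated genes. Sp5 and Axin2 were added as readouts of WNT signalling, and cell markers were read on all arrays. Alternatives changed the normalization, offset (1 or 64), filter (none or the 60th percentile), probe set rule, variance prior, array weights, time block, times and arrays used and the labels of 6 KO arrays, and for 36 h values they were added after the data were seen. Sequences are from RefSeq. Figures were drawn with matplotlib 3.10.9.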

Additional observations from a re-analysis of the deposited data

How the results depend on the processing

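The median difference of the members over the 3 times kept its direction in every comparison and alternative run, except KO against WT without cytokine (-0.15), which came to 0.0035 with array weights. It moved by more than its spread in 3 cases, to 0.18 with an offset of 64 and 0.21 with array weights for BMP4 in KO (0.37 otherwise), and to -0.72 without the 3 arrays of highest Gapdh ratio for KO against WT without cytokine. At 36 h, other scalings moved the median to 2.40 in KO titled BMP4+WNT3A and 2.77 in KO titled WNT3A with an offset of 64. With an offset of 64 list genes past 1 log2 unit came to 3 for BMP4 in KO and 3 for KO against WT without cytokine, and with probe sets of a gene averaged to 5 for BMP4 in KO. At 24 h the member medians were 1.04 in KO titled BMP4+WNT3A, 1.31 in KO titled WNT3A, 0.53 for BMP4 in WT and -0.34 for KO against WT with BMP4, and the list counts 7 and 13 in those KO conditions, 2 for BMP4 in KO, 3 for BMP4 in WT, 11 for WNT3A in WT, 1 for KO against WT with BMP4 and 0 without cytokine. These 36 h and 24 h alternatives were chosen after seeing the data. With exchanged labels of the 6 KO arrays the mean difference of Iigp1 in KO titled BMP4+WNT3A turned to 0.027 (-0.076 by title), and the other members kept their direction there.

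Calls of list genes were few and moved with most settings. For BMP4 in WT, 1 was called with an offset of 64, no filter, no variance trend or without the 6 KO arrays whose labels conflict, and 0 with the mean of probe sets, no time block or without the 3 arrays of highest Gapdh ratio. For WNT3A in WT 0 were called under these 7 settings and with array weights. In KO titled WNT3A the count was 5 with no filter or the mean of probe sets, 14 with array weights and 3 with no time block, in KO titled BMP4+WNT3A 13 with array weights, 0 with no time block and 2 without the Gapdh arrays, for KO against WT with BMP4 2 with the mean of probe sets and 1 with no time block, and for 36 h against 12 h 17 without the 6 KO arrays. With 1 time left out, list counts lay between 0 and 6 in KO titled BMP4+WNT3A, 0 and 10 in KO titled WNT3A, 0 and 1 for BMP4 in KO, 0 and 2 for BMP4 in WT and for WNT3A in WT, and 0 and 3 for KO against WT with BMP4. The cause of these changes was not tested, beyond the fewer arrays in some fits.

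Counts over all genes moved likewise. No filter gave 31 for WNT3A in WT and 7 for KO against WT without cytokine. Array weights gave 2003 in KO titled BMP4+WNT3A, 2425 in KO titled WNT3A, 169 for BMP4 in KO, 37 for WNT3A in WT and 5 for KO against WT without cytokine. With no time block the counts were 214, 476, 17, 99 and 0 for KO titled BMP4+WNT3A, KO titled WNT3A, BMP4 in KO, BMP4 in WT and WNT3A in WT, and 265 and 2 for KO against WT with BMP4 and without cytokine. Without the 6 KO arrays they were 26 for BMP4 in KO, 234 for BMP4 in WT, 0 for WNT3A in WT, 561 and 0 for KO against WT with BMP4 and without cytokine and 3283 for time. Without the Gapdh arrays they were 415, 681, 24, 253 and 34 in the order above, and 1 for KO against WT without cytokine. With 1 time left out they lay between 0 and 769, 102 and 1210, 0 and 86, 12 and 369, and 0 and 268 in that order, between 7 and 846 for KO against WT with BMP4 and between 0 and 38 without cytokine. The remaining counts under these alternatives stayed within 1.5 times. The time term pairs arrays of the same hour, and the counts with no time block are those without this pairing. No other paired analysis was possible because the labels number no replicates. Dim signals limit Gbp3 and the fainter probe sets of Gbp7 and Iigp1 most.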
